A study of Mus musculus with 9 samples.

Results

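The comparison set right ventricular muscle of mice that carried a surgical volume overload and received cyclosporin A (CsA) against the same tissue of mice with the overload alone, and so asks how the drug alters RNA levels in the loaded right ventricle. It covers 6 of the 9 RNA-seq libraries of the series, 3 of the CsA group (CsA 1 to 3) and 3 of the untreated overload group (VO 1 to 3), chosen by their labels and compared over every gene of the deposited expression table. All mice were wild type C57BL/6, and the labels place them at postnatal day 7, the age at which the operation was done under isoflurane. Mice of both groups underwent fistula surgery, in which a shunt raises the volume of blood that the right heart must pump, and the CsA group was injected with the drug as well. The other 3 libraries came from sham-operated mice; they entered the statistical model and are quoted as a reference level. The Y-linked gene Ddx3y was at 18.6 FPKM in Sham 2 and listed at 0 in the other 8 libraries. Xist was at 0.0040 FPKM in Sham 2 and 10.2 to 66.3 FPKM elsewhere, so the sham group, unlike CsA and VO, was mixed in sex. Without Sham 2, limma called 0 genes between CsA and VO and 2030 had an unadjusted p under 0.05. The labels give neither the dose and number of injections, nor a vehicle for the untreated group, nor the age at which hearts were taken, and a sham group with CsA is not among these samples, so what the drug does without overload is not shown. The labels do not say whether the libraries of a group came from separate mice, and a p-value here reflects library-to-library spread, which may be partly technical.

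Cyclosporin A binds cyclophilins, a family of peptidyl-prolyl isomerases, and the complex blocks calcineurin, the calcium- and calmodulin-dependent phosphatase that sends NFAT transcription factors to the nucleus. In heart muscle, calcineurin and NFAT are a classical route from raised load to growth of the myocyte and to the fetal gene programme, and Rcan1, a calcineurin inhibitor transcribed from an internal NFAT-driven promoter, is the usual readout of the pathway. In the days after birth the mouse heart also leaves the cell cycle, turns from glucose to fatty acid oxidation and expands its capillary bed.

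Because Rcan1 is the pathway's own feedback gene, the windows of 250 bases before its RefSeq start sites (GRCm38.p6) are shown, with each GGAAA, the core that NFAT proteins bind, in capitals on either strand (TTTCC is its reverse complement). The internal start lies on the minus strand, with its window at chr16:92400079-92400328.
Rcan1 internal start: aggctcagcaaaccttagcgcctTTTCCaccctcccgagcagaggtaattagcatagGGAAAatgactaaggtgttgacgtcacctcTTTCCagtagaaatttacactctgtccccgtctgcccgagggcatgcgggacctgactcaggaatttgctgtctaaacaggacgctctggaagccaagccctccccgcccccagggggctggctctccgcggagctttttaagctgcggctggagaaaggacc
Rcan1 upstream start: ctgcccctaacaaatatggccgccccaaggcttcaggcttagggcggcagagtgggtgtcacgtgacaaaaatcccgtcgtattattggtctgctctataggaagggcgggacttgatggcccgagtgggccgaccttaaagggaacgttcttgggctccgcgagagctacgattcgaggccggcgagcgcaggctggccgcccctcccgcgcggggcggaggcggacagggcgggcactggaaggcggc
The window of the internal start held 3 matches and that of the upstream start, chr16:92466170-92466419, held 0. Among 32851 RefSeq windows of the same length, 6.39% held at least 3 matches and 55.6% at least 1. A match is a description of the letters, and the gene-level values do not separate transcripts from the 2 starts.

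The compared libraries held 12046288 to 15986747 fragments assigned to genes. They carried ventricular muscle RNA: the ventricular light chain gene Myl2 stood at 937 to 1122 FPKM in CsA and 511 to 1506 in VO. FPKM is fragments per kilobase of gene length, scaled to the size of the library. The left-ventricular factor Hand1 was listed at 0 in all 9. Tbx5, checked beside it, was at 4.53 to 5.14 FPKM in CsA, 1.64 to 4.03 in VO and 5.48 to 10.8 in Sham. The factors Hand2 and Tbx20 were also above 0 in all 9. Which ventricle the RNA came from was not otherwise tested. VO 3 stood apart from the other 8 libraries. In it 11.01% of fragments came from the mitochondrial genome against 22.2 to 26.3% elsewhere, 17003 genes were above 0 against 19619 to 20479, and it had the highest values of Fabp4 (456 FPKM) and of the globin gene Hbb-bs (1304 FPKM). CsA 2 resembled sham libraries more than its own group: over the tested genes its log2 values had a Pearson correlation of 0.982 with Sham 1, 0.969 with CsA 1 and 0.966 with CsA 3. CsA 3 also correlated most with a sham library, at 0.984 with Sham 2 against 0.981 with CsA 1 and 0.966 with CsA 2. VO 2 correlated at 0.977 with CsA 1 and 0.974 with CsA 3, against 0.967 with VO 1 and 0.939 with VO 3. CsA 3 held the atrial light chain gene Myl7 at 68.3 FPKM, while it was 3.02 to 6.06 FPKM in VO. Myl7 was higher still in Sham 1 (235 FPKM) and Sham 3 (269.7 FPKM), and was at 1.097 FPKM in Sham 2. The sham reference was thus uneven in atrial RNA. A setting given below leaves out CsA 3, Sham 1 and Sham 3 because they were high in Myl7. Values without VO 3 or CsA 2 are therefore given beside each gene whose printed difference they moved by more than 1.5 times. List medians are given with the left-out libraries that moved them furthest by that much. The part of these libraries in the results was not otherwise tested.

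No gene passed the test between CsA and VO. Among the 13477 genes that averaged 0.5 FPKM or more across all 9 libraries, 0% were called higher and 0% lower in limma at a Benjamini-Hochberg adjusted p of 0.05, and the smallest adjusted p was 0.122; voom on the fragments recovered from FPKM called 0 as well. Before adjustment 2219 genes had a p under 0.05, 1165 higher in CsA (8.64% of those tested) and 1054 lower (7.82%). In 1467 genes (10.9%) every CsA library lay above every VO library, and in 1384 (10.3%) every CsA library lay below. Differences are given as CsA minus VO on the log2(FPKM + 1) scale, which understates the change of low genes; their median over all tested genes was -0.00134, with 6713 above 0 and 6764 below. 214 genes differed by at least 1 in either direction, 142 of them with no overlap between the groups. Leaving out VO 3 gave 3133 genes at an unadjusted p under 0.05 and 1 called gene, the microRNA gene Mir301, while leaving out CsA 2 gave 1094 genes and 0 called. Of the genes at an unadjusted p under 0.05, 52.5% were higher in CsA as deposited, 51.1% with median-of-ratios scaling, 49.5% after quantile normalization and 74.3% once mitochondrially encoded genes were removed from the totals. The share was 43.5% after the GC correction described next and 33.8% with voom, which changes the input, the offset and the weights together.

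The difference followed base composition across genes. Spearman's rho between the log2 difference and the GC content of the transcript was 0.402 over 13465 genes, which share their 6 libraries and are not replicates. When the genes were cut into 10 equal groups by GC, the median difference ran from -0.20 in the lowest group to 0.27 in the highest, and from -0.32 to 0.33 without VO 3. Genes higher in CsA at an unadjusted p under 0.05 had a median GC of 55.3%, those lower had 44.7% and the others 49.3%. Each library's GC trend was removed as an alternative, called the GC correction below; its values are printed beside genes that it moved by more than 1.5 times, and the part of GC in the results was not otherwise tested.

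**Figure D1:**
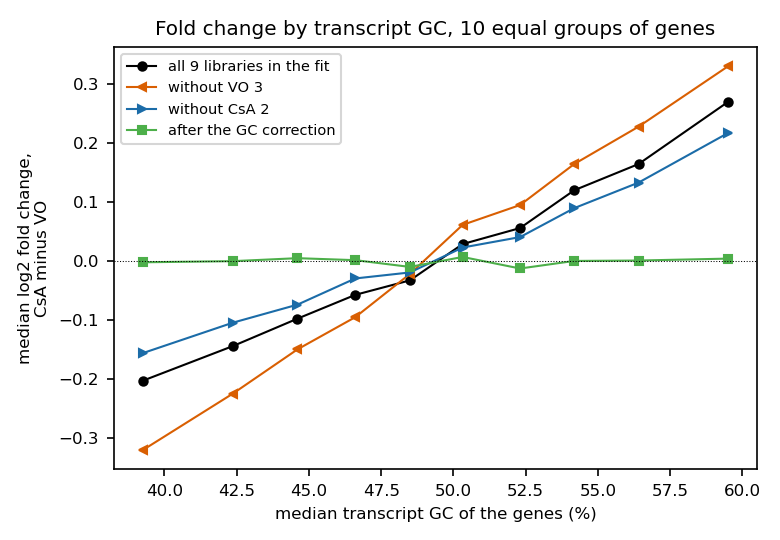
Median log2(FPKM + 1) difference, CsA minus VO, against the median transcript GC in percent, for 10 equal groups of tested genes, with all 9 libraries, without VO 3, without CsA 2 and after the GC correction. The line rises from -0.20 to 0.27 with all libraries and stays between -0.013 and 0.0069 after the correction.

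Among protein-coding genes whose higher group averaged 2 FPKM or more, with no overlap and CsA above VO, the 8 with the smallest p were Klf4, Rasl10b, Dyrk1b, Ralgds, Csrnp1, Ppp1r9b, H1fx and Ablim3, each at an adjusted p of 0.204 in limma and so not past the test. Klf4, a zinc-finger transcription factor of the Krüppel-like family (ENSMUSG00000003032, chromosome 4, 55527143 to 55532466, GRCm38), stood at 14.02, 17.3 and 15.4 FPKM in CsA 1 to 3 and 7.33, 7.68 and 5.48 FPKM in VO 1 to 3. No CsA library was below 14.02 FPKM and no VO library exceeded 7.68, and the sham libraries held 17.1 to 20.1 FPKM. The log2 difference was 1.09 ± 0.158 (SE). Dyrk1b, a kinase of the DYRK family (chromosome 7, 28179469 to 28187294), showed 5.101, 8.13 and 7.04 FPKM in CsA 1 to 3 and 1.77, 3.19 and 1.94 FPKM in VO 1 to 3, a difference of 1.24 ± 0.201 (SE). Its lowest CsA value was above the highest VO value, and sham libraries held 8.22 to 9.72 FPKM. Rasl10b, a Ras-like small GTPase (chromosome 11, 83409137 to 83421039), was measured at 6.36, 7.298 and 6.06 FPKM in CsA 1 to 3 and 2.61, 3.05 and 2.92 FPKM in VO 1 to 3. That is a difference of 0.97 ± 0.142 (SE) with a narrow spread inside both groups. Ralgds, an exchange factor for Ral GTPases, differed by 0.97 ± 0.164 (SE), and the nuclear protein gene Csrnp1 by 0.77 ± 0.135 (SE). Ppp1r9b, which encodes the protein phosphatase 1 scaffold spinophilin, differed by 0.92 ± 0.163 (SE, 0.58 after the GC correction). The linker histone gene H1fx, with a transcript GC of 71.3%, differed by 0.93 ± 0.168 (SE, 0.28 after the GC correction), on 98 fragments in CsA and 36 in VO. Ablim3, an actin-binding LIM protein gene, differed by 1.12 ± 0.209 (SE).

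On the side with CsA below VO, the same rule gave Stfa1, Stard3nl, Eif1a, Rbm12b2, Drg1, Hpf1, Ier3ip1 and Rnf138, all at an adjusted p of 0.204 in limma and not past the test. Stard3nl, a late endosomal membrane protein gene (ENSMUSG00000003062), was measured at 2.99, 2.43 and 3.05 FPKM in CsA 1 to 3 and 4.998, 4.86 and 6.02 FPKM in VO 1 to 3. Its CsA values lay near the sham range of 2.67 to 2.76 FPKM and all VO values above it, a difference of -0.72 ± 0.131 (SE). Eif1a, the gene of a translation initiation factor that helps the ribosome scan for the start codon, read 11.4, 7.41 and 10.9 FPKM in CsA 1 to 3 and 19.9, 16.9 and 22.5 FPKM in VO 1 to 3. Drg1, a GTPase that associates with translating ribosomes (chromosome 11, 3187360 to 3266415), read 18.4, 14.3 and 17.4 FPKM in CsA 1 to 3 and 31.9, 25.9 and 45.2 FPKM in VO 1 to 3. Neither gene's groups overlapped; Eif1a differed by -0.94 ± 0.182 (SE) and Drg1 by -0.97 ± 0.200 (SE). Hpf1, the partner that directs PARP enzymes to serine residues, differed by -0.71 ± 0.148 (SE), the ER membrane protein gene Ier3ip1 by -0.91 ± 0.190 (SE) and the ubiquitin ligase gene Rnf138 by -0.84 ± 0.178 (SE, -0.54 after the GC correction). Rbm12b2 differed by -0.94 ± 0.190 (SE) and has a close copy, Rbm12b1, between which the counting could split fragments. Stfa1, a stefin protease inhibitor gene of a cluster of near-identical copies, had 0, 0 and 0.536 FPKM in CsA and 1.86, 1.31 and 3.02 in VO. It rests on 5 fragments in CsA and 70 in VO and is uncertain for both reasons. The VO libraries enter both CsA minus VO and VO minus Sham, so a CsA value that lies near the sham level is a position and not a separate test.

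**Figure D2:**
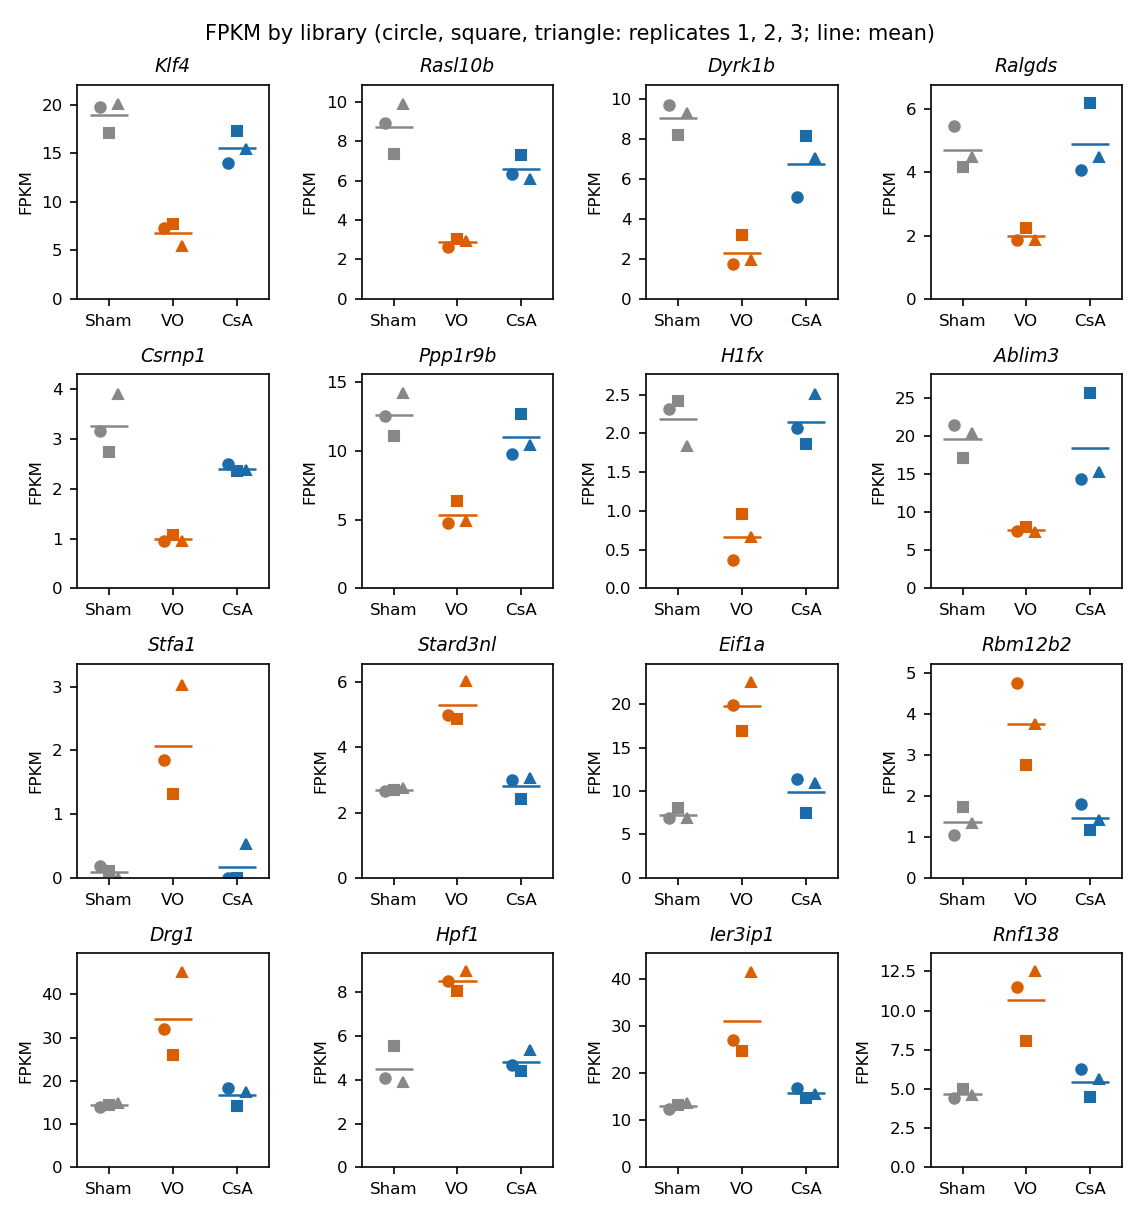
FPKM in each library (y axis, from 0) of the 8 genes with CsA above VO and the 8 with CsA below VO that had the smallest p, in Sham, VO and CsA (x axis); circle, square and triangle are replicates 1, 2 and 3 and the line is the group mean. Only genes with no overlap between the CsA and VO libraries were eligible, so the separation in all 16 panels follows from the choice. None of these genes passed the test.

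The direct binding partners of the drug are the cyclophilins. Of 16 tested cyclophilins, 12 were lower in CsA and 4 higher, with a median difference of -0.22 (-0.12 after the GC correction), and in 6 of them (37.5%, beside 10.3% of all genes) every CsA library lay below every VO library. Ppia, which encodes cyclophilin A, the main cytosolic binding protein of CsA, stood at 31.1, 27.6 and 39.7 FPKM in CsA 1 to 3 and 44.4, 84.7 and 68.03 FPKM in VO 1 to 3. VO 1 was close to the CsA libraries and VO 2 and VO 3 were well above them; the groups did not overlap, and sham libraries held 25.4 to 44.4 FPKM. Its log2 difference was -0.95 ± 0.283 (SE) at an adjusted p of 0.219, which does not pass. Ppid, the Hsp90-associated cyclophilin gene, read 8.42, 7.199 and 7.96 FPKM in CsA 1 to 3 and 12.2, 11.3 and 10.7 FPKM in VO 1 to 3, a difference of -0.48 ± 0.143 (SE) with no overlap. Ppib, the cyclophilin of the endoplasmic reticulum, differed by -0.53 ± 0.266 (SE, -0.18 without VO 3), and Ppif, the mitochondrial cyclophilin of the permeability transition pore, by -0.31 ± 0.201 (SE, -0.10 without VO 3). Ppia has many processed pseudogene copies that could share its fragments.

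Of 23 tested genes of calcineurin, its regulators and NFAT, 13 were higher and 10 lower, with a median of 0.037 (-0.090 without VO 3, 0.076 without VO 1 and 0.12 after the GC correction). An unadjusted p under 0.05 was reached by 3 of the former and 2 of the latter, beside 8.64% and 7.82% of all genes. Rcan1 (ENSMUSG00000022951, chromosome 16, 92391953 to 92470867) stood at 23.7, 18.9 and 30.05 FPKM in CsA 1 to 3 and 28.5, 29.2 and 49.4 FPKM in VO 1 to 3. CsA 3 was above VO 1 and VO 2, so the groups overlapped, and VO 3 alone gave the highest value; sham libraries held 21.5 to 27.4 FPKM. The log2 difference was -0.52 ± 0.244 (SE, -0.27 without VO 3), with a 95% interval of -1.07 to 0.026 and an adjusted p of 0.320 in limma. The interval includes 0, so a difference in the pathway's own readout was not resolved by these libraries. Ppp3cb, the beta catalytic subunit of calcineurin, read 16.1, 11.6 and 13.5 FPKM in CsA 1 to 3 and 26.96, 19.4 and 19.1 FPKM in VO 1 to 3, with all CsA values below all VO values. Its difference was -0.62 ± 0.183 (SE) at an adjusted p of 0.218, and the alpha subunit gene Ppp3ca differed by -0.19 ± 0.139 (SE, -0.11 after the GC correction, -0.090 without VO 3). Among the transcription factors, Nfatc1 differed by 0.23 ± 0.133 (SE, 0.12 after the GC correction), Nfatc3 by 0.17 ± 0.230 (SE, -0.14 without VO 3) and Nfatc4 by 0.13 ± 0.131 (SE, -0.11 after the GC correction, 0.064 without CsA 2). The cardiac factor gene Mef2d differed by 0.81 ± 0.284 (SE, 0.45 without VO 3), the calmodulin gene Calm3 by 0.53 ± 0.215 (SE, 0.31 after the GC correction) and Fkbp1a, the binding protein of the other calcineurin inhibitor FK506, by -0.46 ± 0.192 (SE).

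**Figure D3:**
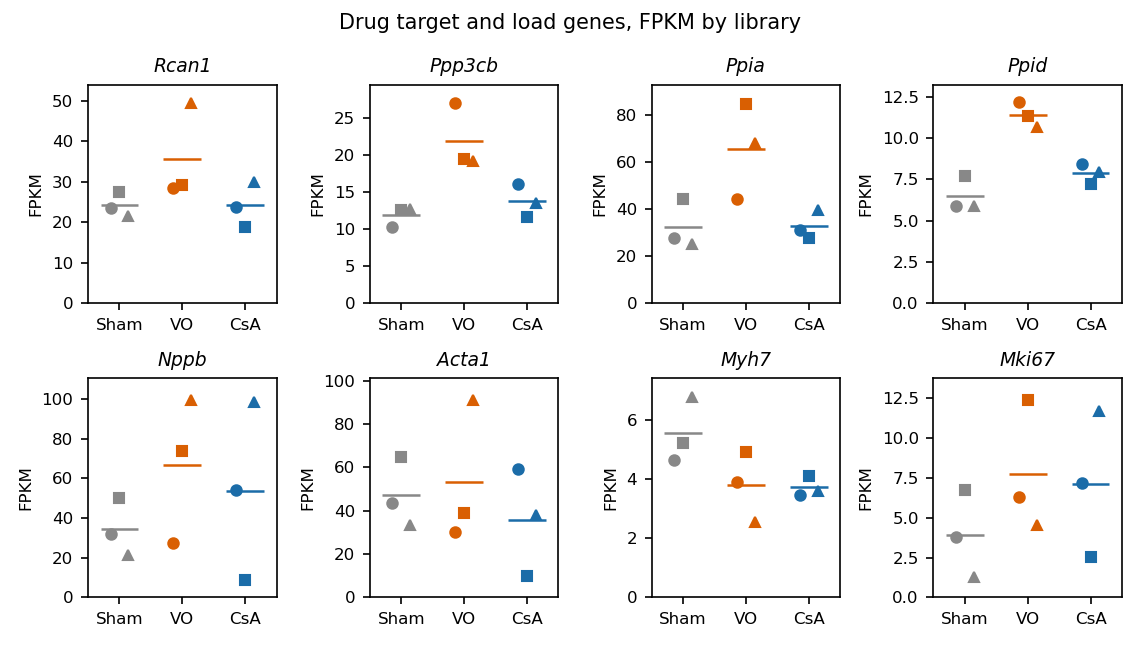
FPKM in each library (y axis, from 0) of 4 genes of the CsA target pathway and 4 of load and growth, in Sham, VO and CsA (x axis); circle, square and triangle are replicates 1, 2 and 3 and the line is the group mean. CsA and VO separate in Ppp3cb, Ppia and Ppid, overlap in Rcan1, and CsA 2 is the lowest of the CsA points in Nppb, Acta1 and Mki67.

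The load markers Nppb, Acta1 and Myh7 did not separate the groups, while the adult myosin gene Myh6 did. Nppb, the B-type natriuretic peptide released by stretched ventricle, stood at 53.99, 8.695 and 98.5 FPKM in CsA 1 to 3 and 27.2, 74.1 and 99.6 FPKM in VO 1 to 3. CsA 2 was the lowest of all 9 libraries and CsA 3 was about level with VO 3. The difference of -0.67 ± 0.784 (SE, -0.29 without VO 3, 0.31 without CsA 2) turned its sign without CsA 2. Acta1, the skeletal actin of the fetal programme, read 59.1, 9.95 and 38.2 FPKM in CsA 1 to 3 and 30.2, 39.02 and 91.2 FPKM in VO 1 to 3 and showed the same low CsA 2, a difference of -0.72 ± 0.605 (SE, -0.26 without VO 3, -0.0042 without CsA 2). Myh7, the slow fetal myosin heavy chain, read 3.47, 4.11 and 3.598 FPKM in CsA 1 to 3 and 3.904, 4.92 and 2.54 FPKM in VO 1 to 3. Its groups overlapped throughout, and the difference of 0.011 ± 0.202 (SE, -0.15 after the GC correction, -0.19 without VO 3, -0.046 without CsA 2) has a 95% interval of -0.44 to 0.46. Myh6, the fast adult isoform, read 1511, 2313 and 1631 FPKM in CsA 1 to 3 and 905, 1205 and 1088 FPKM in VO 1 to 3 with no overlap. Its difference was 0.75 ± 0.263 (SE) at an adjusted p of 0.237 in limma, which does not pass. Tnni1, the fetal slow skeletal troponin I, had 2.05, 0.584 and 4.63 FPKM in CsA against 3.45, 17.6 and 10.8 in VO, a difference of -1.72 ± 0.601 (SE), with CsA 3 above VO 1. Hopx, a homeodomain-only cofactor of the cardiac lineage, differed by -0.84 ± 0.262 (SE) with no overlap. Over the 20 fetal and stretch genes, 10 were higher and 10 lower with a median of -0.086 (0.014 without VO 3, 0.15 without CsA 2, -0.23 without CsA 3 and -0.17 after the GC correction). Of these 20, 1 (5%) separated upward and 2 (10%) downward, beside 10.9% and 10.3% of all genes. Nppa differed by 1.33 ± 1.56 (SE, 2.305 without CsA 2) and Myl7 by 1.198 ± 1.78 (SE, 2.53 without CsA 2), both with CsA 3 far above the other 5 libraries. Without CsA 3 the differences were 0.16 and -0.040. The spread of the sham libraries enters both SEs. With only the CsA and VO libraries in the fit, the SE of Myl7 was 1.102.

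In the adult sarcomere list 15 of 20 members were higher and the median was 0.21 (0.033 without VO 1 and 0.083 without CsA 2). In it 2 members (10%) separated upward and 1 (5%) downward, near or below the 10.9% and 10.3% of all genes. Actn2, the Z-disc alpha-actinin, differed by 0.45 ± 0.190 (SE) and the M-band gene Myom1 by 0.29 ± 0.168 (SE, 0.17 without CsA 2). Calcium handling gave 16 of 24 higher with a median of 0.10 (-0.021 without VO 3 and 0.21 without VO 1). Of its members 2 (8.33%) separated upward and 2 (8.33%) downward, below the 10.9% and 10.3% of all genes. Hrc, the histidine-rich calcium-binding protein of the sarcoplasmic reticulum (chromosome 7, 45335290 to 45338974), was named for the smallest p in this list. It stood at 93.5, 130.5 and 86.97 FPKM in CsA 1 to 3 and 48.8, 47.3 and 59.7 FPKM in VO 1 to 3. All CsA libraries exceeded all VO libraries, sham libraries held 116 to 138 FPKM, and the difference was 0.97 ± 0.196 (SE) at an adjusted p of 0.204. Jph2, which holds the dyad membranes together, differed by 0.62 ± 0.221 (SE, 0.29 after the GC correction), and the calcium/calmodulin kinase gene Camk2d by -0.37 ± 0.187 (SE).

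Energy metabolism did not divide the groups as one programme. The 13 proteins encoded by the mitochondrial genome were higher in 12 cases with a median of 0.59, which was 0.24 without VO 3, the library with 11.01% mitochondrial fragments, and 0.18 after quantile normalization. Of these 13, 5 (38.5%, beside 10.9% of all genes) separated upward and 0 downward. Without VO 3, 8 of the 13 were higher. mt-Cytb, of complex III, differed by 1.19 ± 0.483 (SE, 0.68 without VO 3) and mt-Nd5, of complex I, by 1.19 ± 0.695 (SE, 0.24 without VO 3). The 41 nuclear subunits of oxidative phosphorylation split into 21 higher and 20 lower with a median of 0.0097, which was -0.21 without VO 1 and -0.060 without CsA 2. Without VO 3, 34 were higher with a median of 0.28. The plot of list values by library gives the level in each library: mean deviations were -0.64, -0.38 and 0.62 for the VO libraries in order and -0.10, 0.17 and -0.013 for the CsA libraries, so that VO spans the CsA values. Ndufb8, a complex I subunit (chromosome 19, 44548572 to 44555440), was at 24.3, 33.3 and 31.6 FPKM in CsA 1 to 3 and 11.3, 15.1 and 16.02 FPKM in VO 1 to 3, a difference of 1.02 ± 0.195 (SE) with no overlap. Atp5k, a small subunit of ATP synthase, read 35.2, 85.4 and 74.7 FPKM in CsA 1 to 3 and 7.84, 16.99 and 22.6 FPKM in VO 1 to 3, and Cox8b, the heart isoform of a cytochrome oxidase subunit, read 197, 446 and 310.0 FPKM in CsA 1 to 3 and 33.8, 104 and 167 FPKM in VO 1 to 3. VO 3 was the highest VO library in both; Atp5k differed by 1.99 ± 0.402 (SE) and Cox8b by 1.83 ± 0.516 (SE). Atp5o, also of ATP synthase, differed by 1.25 ± 0.380 (SE) with overlap. These 4 genes were named for the smallest p in the list, and all were higher in CsA. In the whole list 3 members (7.32%) separated upward and 3 (7.32%) downward, beside 10.9% and 10.3% of all genes. The lowest difference of a member was -0.89.

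Genes of fatty acid uptake and oxidation were higher in 23 of 30 tested cases, median 0.11 (0.019 without VO 2 and 0.25 without VO 3), and 3 separated upward, a share of 10% near the 10.9% of all genes. Esrra, the estrogen-related receptor that drives mitochondrial genes, differed by 0.49 ± 0.174 (SE) and its coactivator gene Ppargc1b by 0.56 ± 0.211 (SE, 0.35 after the GC correction, 0.33 without VO 3). Etfdh, which passes electrons from beta-oxidation to ubiquinone, differed by 0.40 ± 0.154 (SE). Glucose use gave 8 of 28 members separated upward (28.6%, beside 10.9% of all genes) and 1 downward (3.57%, beside 10.3%), with a median of 0.15 (0.056 without VO 1 and 0.30 without VO 3). Slc2a4, the insulin-responsive glucose transporter, stood at 43.2, 57.7 and 42.03 FPKM in CsA 1 to 3 and 31.6, 35.2 and 26.7 FPKM in VO 1 to 3. Hk1, the hexokinase that commits glucose to glycolysis, stood at 13.2, 15.3 and 15.6 FPKM in CsA 1 to 3 and 7.82, 11.3 and 9.53 FPKM in VO 1 to 3. All CsA libraries lay above all VO libraries in both, with differences of 0.59 ± 0.191 (SE) for Slc2a4 and 0.58 ± 0.170 (SE) for Hk1. Pdk2, a kinase that inhibits pyruvate dehydrogenase, differed by 0.60 ± 0.206 (SE).

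Proliferation genes leaned lower in CsA, and the list medians came nearest to 0 when CsA 2 was left out. Of 37 mitotic genes 35 were lower with a median of -0.41, but 0 had an unadjusted p under 0.05 and in 0 did the groups separate. Mean deviations of the list were 0.14, -0.80 and 0.63 in CsA 1 to 3 and 0.31, 0.72 and 0.15 in VO 1 to 3: CsA 2 was far below and CsA 3 lay among the VO libraries. The median was -0.046 without CsA 2, with 20 of 37 lower, and -0.75 without CsA 3. DNA replication genes were lower in 31 of 32 cases, with a median of -0.39 (-0.080 without CsA 2 and -0.63 without CsA 3). Without CsA 2, 25 of 32 were still lower. In this list 2 members (6.25%, beside 10.3% of all genes) separated downward. Mki67, which marks cycling cells, stood at 7.16, 2.53 and 11.7 FPKM in CsA 1 to 3 and 6.28, 12.4 and 4.55 FPKM in VO 1 to 3. The difference of -0.19 ± 0.551 (SE, -0.47 without VO 3, 0.32 without CsA 2, 0.17 without VO 2) turned its sign without CsA 2 and without VO 2. The 2 replication genes that separated were Rfc4 and Orc6. Rfc4, a subunit of the clamp loader that places PCNA on DNA (chromosome 16, 23113943 to 23127737), was at 6.84, 3.59 and 7.999 FPKM in CsA 1 to 3 and 13.1, 14.01 and 13.8 FPKM in VO 1 to 3. Its groups did not overlap, sham libraries held 3.49 to 5.07 FPKM, and the difference was -1.09 ± 0.239 (SE) at an adjusted p of 0.204. Orc6, of the origin recognition complex, read 3.97, 4.65 and 5.55 FPKM in CsA 1 to 3 and 5.77, 9.73 and 8.69 FPKM in VO 1 to 3, a difference of -0.65 ± 0.187 (SE) with no overlap. Pcna, the clamp itself, differed by -0.69 ± 0.299 (SE, -0.39 without CsA 2) with overlap. Cell cycle inhibitors and p53 targets gave 11 higher and 14 lower, median -0.061 (0.031 without VO 3 and -0.11 without VO 2); Bbc3, a pro-apoptotic p53 target, differed by 0.60 ± 0.205 (SE, 0.16 after the GC correction) and Phlda3, an inhibitor of Akt, by -0.72 ± 0.247 (SE). VO minus Sham medians were 0.87 for the mitotic and 0.60 for the replication list, from the same VO libraries.

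Genes of splicing and RNA binding lay lower in CsA whichever library was left out. In 29 of 36 the difference was below 0, in 17 of them (47.2%, beside 10.3% of all genes) every CsA library lay below every VO library, and in 16 the unadjusted p was under 0.05, as in 7.82% of all genes on the lower side. The median was -0.41, and it was -0.42 without VO 3, -0.33 without CsA 2 and -0.35 after the GC correction. Srsf7, a serine/arginine-rich splicing factor (chromosome 17, 80200089 to 80207305), stood at 29.2, 15.01 and 29.1 FPKM in CsA 1 to 3 and 54.2, 48.4 and 51.3 FPKM in VO 1 to 3. Srsf3, of the same family, stood at 20.1, 11.4 and 22.6 FPKM in CsA 1 to 3 and 33.5, 32.4 and 37.9 FPKM in VO 1 to 3. Neither gene's groups overlapped, sham libraries held 14.7 to 20.8 FPKM of Srsf7 and 11.3 to 18.2 FPKM of Srsf3, and the differences were -1.099 ± 0.248 (SE) and -0.96 ± 0.259 (SE). Hnrnpd, which binds AU-rich messages, was at 8.45, 6.46 and 8.83 FPKM in CsA 1 to 3 and 12.9, 13.96 and 18.3 FPKM in VO 1 to 3, a difference of -0.84 ± 0.199 (SE). Rbm39, a splicing coactivator, was at 32.8, 26.6 and 27.5 FPKM in CsA 1 to 3 and 52.4, 39.9 and 47.7 FPKM in VO 1 to 3, a difference of -0.67 ± 0.165 (SE). Adjusted p values of these 4 genes were 0.204 to 0.211 in limma, none past the test. The VO minus Sham median of the list was 0.58.

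Of the proteasome genes 22 of 26 were lower with a median of -0.27, and 9 (34.6%, beside 10.3% of all genes) separated downward. Without VO 3, which had the highest mean deviation of the list at 0.76 against -0.14 and 0.033 in VO 1 and VO 2, the median was -0.0069, and it was -0.42 without VO 1. Psma5, of the alpha ring of the core particle, stood at 35.6, 27.8 and 33.6 FPKM in CsA 1 to 3 and 50.7, 47.7 and 63.9 FPKM in VO 1 to 3. Its groups did not overlap, and the difference was -0.72 ± 0.167 (SE). Psma3, of the same ring, differed by -0.61 ± 0.175 (SE) and Psmd14, the deubiquitinase of the lid, by -0.55 ± 0.191 (SE). The ribosomal protein genes turned with the same library: 29 of 43 were lower with a median of -0.17, and the median was 0.22 without VO 3 and -0.46 without VO 1. Rpl10, of the large subunit, differed by -0.78 ± 0.285 (SE, -0.42 without VO 3) and Rpl28 by 1.01 ± 0.391 (SE). Ribosomal protein genes have many processed pseudogenes, so single members are uncertain.

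**Figure D4:**
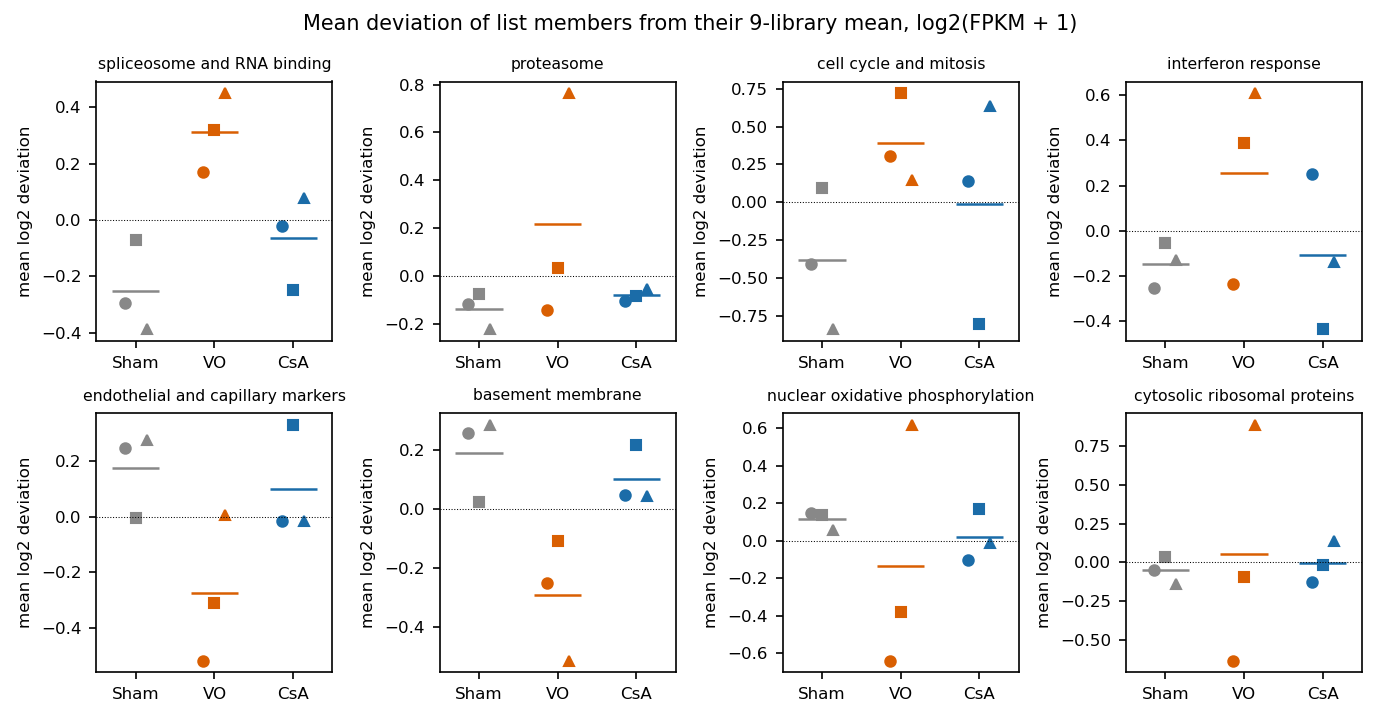
Mean deviation of the members of 8 gene lists from their 9-library mean, on the log2(FPKM + 1) scale (y axis), in each library of Sham, VO and CsA (x axis); circle, square and triangle are replicates 1, 2 and 3 and the line is the group mean. The 3 CsA libraries lie below the 3 VO libraries for splicing and above them for the basement membrane, while VO 3 is the highest VO library in 5 of the other panels and CsA 2 the lowest CsA library for mitosis and interferon.

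Vessel genes lay higher in CsA whichever library was left out, although VO 3 was level with CsA 1 and CsA 3 in the mean of the list. Of 26 endothelial and capillary markers 22 were higher with a median of 0.47, and in 9 (34.6%, beside 10.9% of all genes) every CsA library lay above every VO library. The median was 0.54 without VO 3, 0.27 without CsA 2 and 0.35 after the GC correction. Cdh5, the cadherin of endothelial junctions (chromosome 8, 104101625 to 104144511), stood at 96.5, 123 and 109.8 FPKM in CsA 1 to 3 and 57.7, 74.01 and 53.7 FPKM in VO 1 to 3. The lowest CsA library exceeded the highest VO library, sham libraries held 93.03 to 114 FPKM, and the difference was 0.82 ± 0.183 (SE) at an adjusted p of 0.204, not past the test. Flt1, a VEGF receptor, stood at 8.92, 12.5 and 9.17 FPKM in CsA 1 to 3 and 6.83, 6.41 and 5.32 FPKM in VO 1 to 3, a difference of 0.63 ± 0.169 (SE). Nos3, the endothelial nitric oxide synthase, stood at 5.68, 8.26 and 7.15 FPKM in CsA 1 to 3 and 3.51, 5.18 and 2.95 FPKM in VO 1 to 3, a difference of 0.73 ± 0.197 (SE). Tie1, a receptor of the angiopoietin system, differed by 0.63 ± 0.186 (SE) and the junction protein gene Pecam1 by 0.43 ± 0.159 (SE), both with no overlap. In bulk tissue such values cannot tell more endothelial cells from more RNA of these genes in each cell. The VO minus Sham median of the list was -0.48.

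Smooth muscle and pericyte markers were higher in 14 of 17 tested cases with a median of 0.40 (0.24 without VO 1). Pdgfrb, the pericyte receptor for PDGF, stood at 19.2, 35.1 and 22.5 FPKM in CsA 1 to 3 and 14.7, 16.1 and 11.3 FPKM in VO 1 to 3 with no overlap, a difference of 0.79 ± 0.236 (SE). Myh11, the smooth muscle myosin, differed by 0.58 ± 0.222 (SE) and the pericyte gene Rgs5 by 0.69 ± 0.309 (SE, 0.33 without VO 3). The basement membrane list, which shares its place around vessels and myocytes, was higher in 16 of 17 cases, and 8 (47.1%, beside 10.9% of all genes) separated upward. Its median of 0.42 became 0.27 without VO 3 and 0.29 after the GC correction. Hspg2, the heparan sulphate proteoglycan perlecan, stood at 66.6, 88.4 and 75.4 FPKM in CsA 1 to 3 and 45.2, 62.1 and 32.7 FPKM in VO 1 to 3, a difference of 0.74 ± 0.241 (SE, 0.45 after the GC correction). Col18a1, the precursor of endostatin, differed by 0.52 ± 0.173 (SE, 0.22 after the GC correction), the laminin gene Lamb1 by 0.42 ± 0.144 (SE) and the proteoglycan gene Agrn by 0.55 ± 0.194 (SE, 0.36 without VO 3), all with no overlap.

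Fibrosis genes did not share a direction. The fibrillar collagen and matrix list gave 23 higher and 12 lower of 35, median 0.062 (-0.045 without VO 3 and 0.22 without CsA 2). In this list 7 members (20%) separated upward and 2 (5.71%) downward, beside 10.9% and 10.3% of all genes. Col1a1, the main fibrillar collagen, stood at 125, 133 and 149 FPKM in CsA 1 to 3 and 88.7, 131 and 68.9 FPKM in VO 1 to 3. Its groups overlapped, and the difference was 0.54 ± 0.251 (SE, 0.30 after the GC correction, 0.32 without VO 3) at an adjusted p of 0.320. Col3a1 read 292, 266 and 287 FPKM in CsA 1 to 3 and 299, 312 and 265 FPKM in VO 1 to 3, a difference of -0.052 ± 0.177 (SE, -0.13 after the GC correction, -0.12 without VO 3, -0.010 without CsA 2) with a 95% interval of -0.45 to 0.34. Postn, the matricellular protein of activated fibroblasts, differed by -0.075 ± 0.386 (SE, 0.17 after the GC correction, -0.31 without VO 3, 0.35 without CsA 2), with an interval of -0.94 to 0.79. The elastic fibre genes Mfap4 and Eln separated upward: Mfap4 differed by 0.85 ± 0.222 (SE) and Eln by 0.59 ± 0.230 (SE, 0.36 after the GC correction). The TGF-beta and myofibroblast list split into 11 higher and 14 lower, median -0.051 (-0.12 without CsA 1 and 0.033 without VO 1). The ligand gene Tgfb1 differed by 0.63 ± 0.228 (SE) and the endothelial co-receptor gene Eng by 0.56 ± 0.216 (SE, 0.37 after the GC correction). Matrix turnover genes had a median of 0.14 and fibroblast markers one of 0.21 (0.081 without CsA 2 and 0.32 without VO 3). Plau, the urokinase plasminogen activator, differed by -0.55 ± 0.200 (SE). Lum, the collagen-binding lumican, differed by -0.50 ± 0.206 (SE, -0.30 without CsA 2) and Pi16, a marker of adventitial fibroblasts, by 0.86 ± 0.317 (SE).

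CsA is best known as an immunosuppressant of T cells, but few lymphocyte markers could be measured in this tissue: 4 of 27 listed T, B and NK markers passed the expression filter. Ighm, the heavy chain of IgM from B cells (chromosome 12, 113418558 to 113422730), stood at 5.201, 4.93 and 6.83 FPKM in CsA 1 to 3 and 1.63, 3.08 and 3.29 FPKM in VO 1 to 3 with no overlap, a difference of 0.88 ± 0.209 (SE). The T cell receptor constant gene Trac had 27 fragments in CsA and 28 in VO, too few to show a change. Macrophage markers were higher in 12 of 18 tested cases, median 0.26 (0.0016 without CsA 2). Cd68, of the macrophage lysosome, differed by 0.35 ± 0.422 (SE, 0.81 without VO 3, 0.59 without CsA 2), the Fc receptor gene Fcgr1 by -0.44 ± 0.127 (SE) and F13a1, of resident macrophages, by 0.63 ± 0.249 (SE, 0.40 without CsA 2). Of the neutrophil and mast cell markers 9 of 18 were tested, Ly6g, Mpo and Elane were listed at 0 in all 6 libraries, and the summed level of the list was 13.6 to 19.5 FPKM in CsA and 19.4 to 41.7 in VO. S100a8, a calcium-binding protein of neutrophils, differed by -1.28 ± 0.629 (SE, -0.77 without VO 3, -0.55 without CsA 2).

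Interferon-response genes were lower in 26 of 28 cases with a median of -0.44, but 2 (7.14%) separated beside 10.3% of all genes. An unadjusted p under 0.05 in limma was reached by 5 of 28 on the lower side, as in 7.82% of all genes, and by 0 on the higher side. Mean deviations were 0.25, -0.44 and -0.14 in CsA 1 to 3 and -0.24, 0.39 and 0.61 in VO 1 to 3, so VO 1 was lower than CsA 1 and CsA 3, and the median was -0.15 without VO 3 and -0.19 without CsA 2. Cxcl10, a chemokine induced by interferon, had 0.298, 0.144 and 0.237 FPKM in CsA and 0.613, 1.34 and 0.953 in VO, a difference of -0.67 ± 0.165 (SE) on 19 and 98 fragments. Among inflammatory genes 10 were higher and 8 lower, median 0.091 (0.040 without VO 1). Nfkbia, the inhibitor of NF-kB and its own early target (chromosome 12, 55489410 to 55492647), stood at 17.3, 26.3 and 20.01 FPKM in CsA 1 to 3 and 8.11, 11.1 and 11.6 FPKM in VO 1 to 3. All CsA libraries were above all VO libraries and sham libraries held 21.97 to 28.02 FPKM; the difference was 0.97 ± 0.199 (SE) at an adjusted p of 0.204. The monocyte chemokine genes lay on the other side: Ccl2 stood at 1.92, 0.0710 and 2.68 FPKM in CsA 1 to 3 and 3.09, 2.93 and 7.24 FPKM in VO 1 to 3, a difference of -1.18 ± 0.433 (SE, -0.64 without CsA 2), and Ccl7 differed by -1.38 ± 0.449 (SE) with no overlap.

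Clock and glucocorticoid genes were higher in 20 of 24 tested cases with a median of 0.17 (0.10 without CsA 2 and 0.31 without CsA 3), and 4 (16.7%, beside 10.9% of all genes) separated upward. Per1, a repressor in the clock loop that glucocorticoids also induce (chromosome 11, 69095217 to 69109960), stood at 6.77, 8.86 and 8.97 FPKM in CsA 1 to 3 and 2.72, 4.43 and 1.70 FPKM in VO 1 to 3. No VO library reached the lowest CsA value, sham libraries held 10.6 to 13.7 FPKM, and the difference was 1.27 ± 0.239 (SE) at an adjusted p of 0.204. As an example of a clock promoter in this list, the 250 bases before the first RefSeq start of Per1, at chr11:69098699-69098948 on the plus strand (GRCm38.p6), are printed with the E-box CACGTG, the letters that CLOCK and BMAL1 bind and their own reverse complement, in capitals.
Per1 promoter: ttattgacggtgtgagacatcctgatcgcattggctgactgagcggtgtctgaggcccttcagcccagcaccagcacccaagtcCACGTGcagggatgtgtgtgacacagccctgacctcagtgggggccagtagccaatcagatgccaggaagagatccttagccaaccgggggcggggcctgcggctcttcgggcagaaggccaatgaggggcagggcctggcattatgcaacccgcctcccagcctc
The window holds 1 match, as did 6.02% of RefSeq windows of that length at least once. The window of the other Per1 start, chr11:69099902-69100151, and that of Dbp, chr7:45704997-45705246, held 0. Dbp, a clock output factor, stood at 4.17, 4.75 and 4.68 FPKM in CsA 1 to 3 and 1.68, 2.41 and 2.56 FPKM in VO 1 to 3 with no overlap, a difference of 0.79 ± 0.160 (SE, 0.47 after the GC correction). Klf9, a glucocorticoid-induced factor, stood at 27.6, 50.3 and 26.6 FPKM in CsA 1 to 3 and 19.02, 16.2 and 7.31 FPKM in VO 1 to 3 with no overlap, a difference of 1.27 ± 0.382 (SE). Nr1d1, which encodes the clock repressor REV-ERB alpha, differed by 0.56 ± 0.217 (SE, 0.34 without CsA 2) with overlap. The labels do not give the time of day at which hearts were taken, so time of day and treatment cannot be told apart for these genes.

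Immediate early genes gave 14 higher and 10 lower of 24, median 0.15 (0.053 without CsA 3 and 0.32 without CsA 2). Of these, 4 (16.7%) separated upward and 2 (8.33%) downward, beside 10.9% and 10.3% of all genes. Zfp36, which degrades AU-rich messages, stood at 3.72, 6.66 and 4.85 FPKM in CsA 1 to 3 and 1.75, 3.33 and 2.54 FPKM in VO 1 to 3 with no overlap, a difference of 0.78 ± 0.227 (SE). Klf2, a shear-stress factor of endothelium, differed by 1.00 ± 0.330 (SE) and Myc by 0.53 ± 0.181 (SE). Some members of each stress list separated, beside 10.9% of all genes upward and 10.3% downward. Shares upward and downward were 12% and 8% for integrated and ER stress, and 5% and 20% for heat shock. For hypoxia they were 9.52% and 14.3%, for autophagy and FoxO targets 15.4% and 3.85%, and for apoptosis 12% and 8%. Integrated and ER stress genes had a median of -0.029 (-0.12 without CsA 3, 0.044 without CsA 1) and heat shock genes one of -0.0078 (-0.13 without VO 1, 0.083 without VO 3). The hypoxia median was 0.046 (0.023 without VO 2, 0.14 without VO 1). That of autophagy and FoxO targets was 0.042 (-0.021 without VO 2, 0.19 without VO 3). That of apoptosis genes was -0.057 (-0.083 without VO 2, 0.051 without VO 3). Ddit4, an inhibitor of mTORC1 (chromosome 10, 59949669 to 59951834), stood at 21.6, 54.4 and 17.3 FPKM in CsA 1 to 3 and 5.79, 7.73 and 9.06 FPKM in VO 1 to 3. CsA 2 was the highest library and no VO library reached the lowest CsA value; the difference was 1.75 ± 0.419 (SE) at an adjusted p of 0.204. Map1lc3a, an LC3 protein of the autophagosome, stood at 122, 252 and 198 FPKM in CsA 1 to 3 and 36.5, 92.7 and 84.9 FPKM in VO 1 to 3 with no overlap, a difference of 1.45 ± 0.368 (SE). The FoxO factor gene Foxo3 differed by 0.70 ± 0.293 (SE, 0.34 without CsA 2) and its atrophy target Fbxo32 by 0.61 ± 0.247 (SE, 0.39 without CsA 2). Bag3, a co-chaperone of the Z-disc, differed by 0.74 ± 0.200 (SE), while Hsp90aa1, the inducible Hsp90, stood at 44.95, 24.6 and 45.1 FPKM in CsA 1 to 3 and 65.02, 57.9 and 71.5 FPKM in VO 1 to 3, a difference of -0.79 ± 0.252 (SE, -0.51 without CsA 2) with no overlap. Hif1a, the hypoxia-inducible factor, differed by -0.54 ± 0.179 (SE) with no overlap. Chac1, a target of the integrated stress response that degrades glutathione, differed by 0.85 ± 0.274 (SE, 0.51 without CsA 2).

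**Figure D5:**
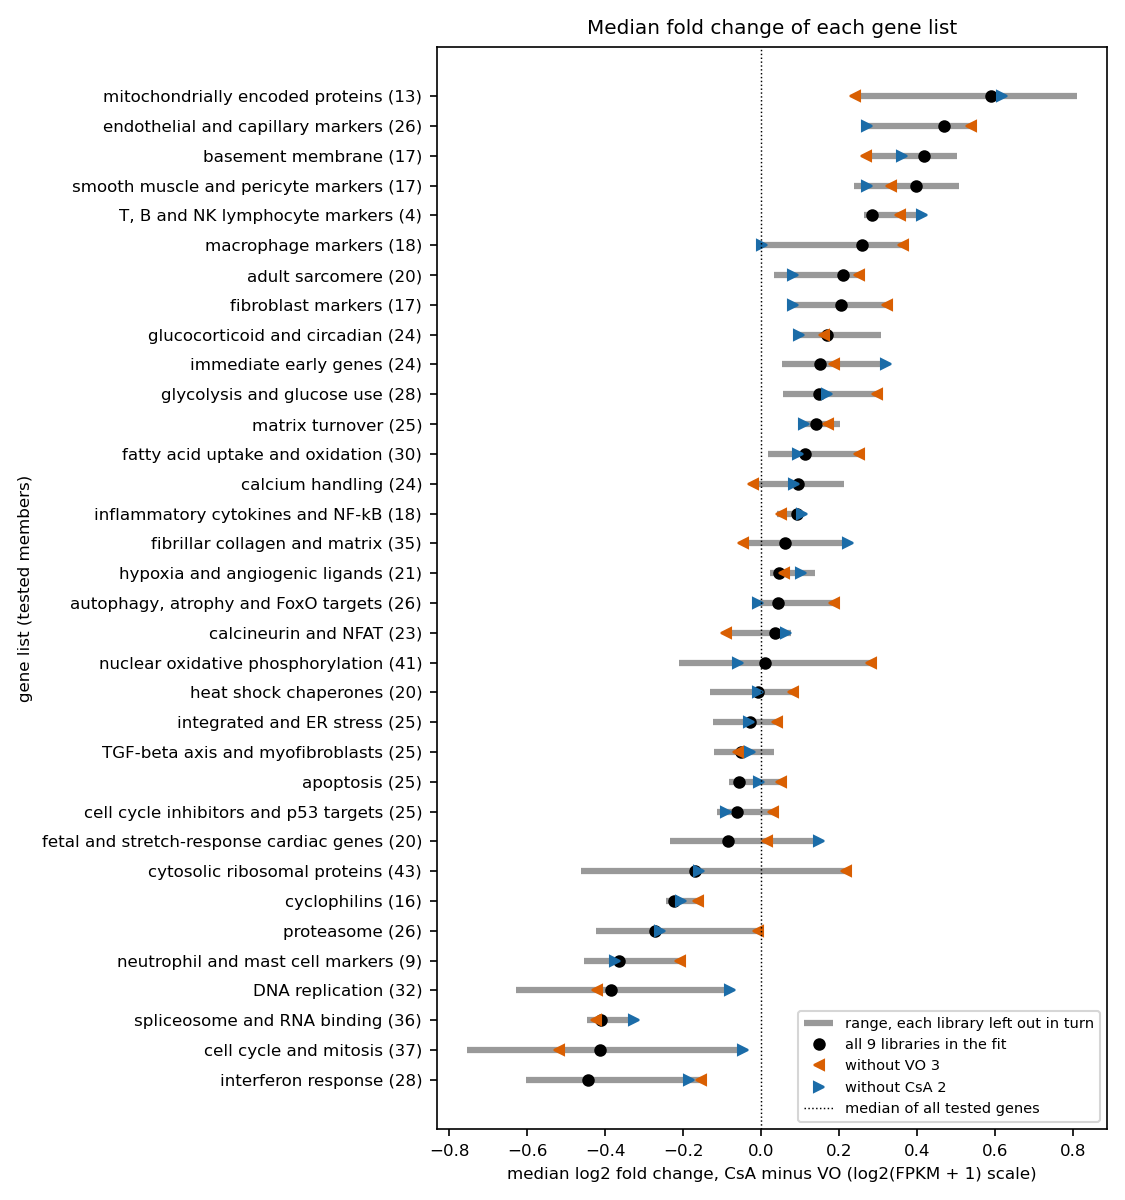
Median log2(FPKM + 1) difference, CsA minus VO (x axis), of 34 gene lists (y axis, tested members in brackets) with all 9 libraries in the fit, without VO 3 and without CsA 2; grey bars span the medians when each library is left out in turn. The splicing bar runs from -0.45 to -0.33, and the endothelial bar stays above 0. The ribosomal, calcineurin, calcium handling, collagen, fetal, p53, heat shock, ER stress and apoptosis medians change sign without VO 3. The oxidative phosphorylation, fetal and autophagy medians do so without CsA 2.

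Markers of other cells were followed because some libraries stood apart. Atrial markers summed to 129 to 285 FPKM in CsA and 117 to 135 in VO, with 10 of 14 tested members higher and a median of 0.56, which was 0.016 without CsA 3. Erythroid genes summed to 718 to 1086 FPKM in CsA and 644 to 2093 in VO, with 3 of 10 higher and a median of -0.18 (0.13 without VO 3, 0.013 without CsA 2 and -0.35 without VO 1). Epicardial, valve and adipocyte markers summed to 37.03 to 44.5 FPKM in CsA and 31.6 to 40.5 in VO, 8 of 11 higher, with the adipocyte genes Adipoq, Plin1, Cidec, Cfd and Ucp1 listed at 0 in all 6. Neural and Schwann cell markers had 5 of 7 tested members higher with a median of 0.15 (-0.054 without CsA 2 and 0.23 without CsA 1). Of the thymus and lymphoid stroma genes 1 of 12 was tested and 6 were listed at 0 in all 6 libraries, Foxn1, Rag2 and Dntt among them. The part of these cells in the differences above was not tested.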

How the data were processed

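The authors deposited FPKM for 54532 genes in 9 mouse right ventricular RNA-seq libraries, made from 1 µg of RNA each per the labels' protocols, with a NEBNext Ultra kit; the labels do not say whether counting used strand. The submitters' processing notes name the build GRCm38 and, with no order or role, featureCounts 1.5.0-p3, HISAT2 2.0.5, GATK 3.7, DESeq2 1.20.0 and StringTie 1.3.3b. FPKM times gene length gave whole fragments within 0.1 for 99.99% of values. Members and gene lists were chosen with earlier results of these data known, so list counts are descriptions.

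Groups came from the labels. Genes that averaged 0.5 FPKM or more across the libraries (13477; 27959 genes were at 0 throughout) entered 1 limma 3.58.1 fit (R 4.3.3) of log2(FPKM + 1) on group over all 9 libraries, with trended empirical Bayes, a two-sided CsA minus VO contrast and Benjamini-Hochberg adjustment at 0.05. Sham libraries add to the estimate of spread. The script was tested on simulated data. Named genes were to be the 12 highest and lowest past the test with at least 2 FPKM and no overlap, filled to 8 by the smallest p since none passed, together with, from each list, at most 4 members of lowest p and a fixed set of target and load genes; a few of these are not reported here. Transcript GC is that of the longest GENCODE M21 transcript; the correction removed a loess trend (span 0.3) in each library. Promoter windows are from RefSeq. Alternatives covered the pseudocount, filter, scaling, replicate block, weights, GC, voom and each library left out. Values of 2 groups of 3 give intervals for spread between libraries only.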

Additional observations from a re-analysis of the deposited data

How the results depend on the processing

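The count of called genes was 0 under every alternative tried except leaving out VO 3, which gave 1 (Mir301, also 1 with the GC correction added). The number at an unadjusted p under 0.05, 2219 as reported, was 1336 with library weights and 908 without Sham 1, Sham 3 and CsA 3, and ran from 1094 (without CsA 2) to 3133 (without VO 3) as each library was left out in turn. The number of genes whose groups did not overlap, 2851 as reported, ran from 2851 to 5519 in the same series, where fewer libraries overlap less often, and was 4848 with the GC correction and without VO 3. With the replicate block, 0 genes were called and 1856 had an unadjusted p under 0.05. The labels do not say what a replicate number marks, the deviations of same-numbered CsA and VO libraries correlated at 0.237, -0.0905 and 0.0521, and 2 of 9 libraries correlated best with their own number, so the numbers were not taken to pair samples. A count test on recovered fragments was planned and not run, because the deposited unit is FPKM; voom on those fragments called 0 genes, with 2397 at an unadjusted p under 0.05. Of 3759 values of 164 named genes, 3722 kept their direction and their side of the threshold, 37 turned the sign of a difference that had not passed the test, and 0 passed. The cause was not tested. Some alternatives leave the CsA minus VO difference itself unchanged and could not turn a sign. They are the filters, the fit of only CsA and VO, the replicate block and each sham library left out. For named genes whose CsA and VO libraries did not overlap, leaving out any CsA or VO library could not turn a sign either. The count of kept directions therefore overstates how far the values were put to the test. With the GC correction and without VO 3 the differences were -0.030 for Xirp1, -0.016 for Mmp15, -0.10 for Adamts10, -0.14 for Notch3, 0.044 for Psmc6, 0.019 for Ppp3ca, -0.046 for Nfatc3, -0.17 for Nfatc4, -0.43 for Myh7, 0.073 for Postn. With voom on recovered fragments the differences were -0.024 for Trac, -0.062 for Myh7. Without Sham 1, Sham 3 and CsA 3 the differences were -0.26 for Trac, -0.040 for Myl7. With library weights the differences were -0.029 for Nfatc3, 0.063 for Nppb, -0.14 for Myh7, 0.017 for Postn. With the GC correction alone the differences were -0.11 for Nfatc4, -0.15 for Myh7, 0.17 for Postn. After quantile normalization the differences were -0.027 for Myh7. After rescaling without mitochondrial genes the differences were 0.062 for Col3a1, 0.037 for Postn. Leaving out each library in turn gave, for the genes that turned sign, these lowest and highest values: Cd68 -0.14 to 0.81, Mki67 -0.60 to 0.32, Myh7 -0.19 to 0.18, Myl7 -0.040 to 2.53, Nfatc3 -0.14 to 0.36, Nppb -1.37 to 0.31, Postn -0.33 to 0.35, Trac -0.26 to 0.32. List medians moved by more than the spread between libraries in 57 of 896 values. After rescaling without mitochondrial genes, the fetal (0.012), p53 (0.045), TGF-beta (0.053), ER stress (0.082), heat shock (0.11) and apoptosis (0.038) medians turned positive. With voom, the calcineurin (-0.051), oxidative phosphorylation (-0.086), collagen (-0.033), calcium handling (-0.0077), hypoxia (-0.050) and autophagy (-0.051) medians turned negative. The medians of all tested genes were 0.080 and -0.089 in these settings. Depth limits genes resting on few fragments such as Stfa1, Cxcl10 and Trac; with 3 libraries a group, differences of the sizes shown could not be separated from the spread after adjustment.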

Other observations

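The smallest p of the comparison belonged to Gm29107, a lincRNA gene (chromosome 1, 23293729 to 23294075, GRCm38). It stood at 1.45, 0.699 and 0.878 FPKM in CsA 1 to 3 and 3.98, 3.798 and 4.51 FPKM in VO 1 to 3. All CsA libraries were below all VO libraries, with 13 fragments in CsA and 66 in VO. The log2 difference was -1.36 ± 0.160 (SE) at an adjusted p of 0.122 in limma, which does not pass, and -0.85 after the GC correction. Snhg5, the host gene of small nucleolar RNAs, stood at 2.52, 2.804 and 2.77 FPKM in CsA and 4.897, 7.39 and 7.07 in VO, a difference of -0.99 ± 0.200 (SE) with 175 and 511 fragments.

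Mir301, the gene called without VO 3 at an adjusted p of 0.00264 in limma, was listed at 2.92, 2.705 and 0 FPKM in VO 1 to 3 and at 0 in the CsA and Sham libraries; it rests on 7 fragments. Its adjusted p was 0.232 with all 9 libraries, and the next adjusted p without VO 3 was 0.0753; over the alternatives tried the smallest adjusted p of any gene ran from 0.00264 to 0.693. Processed pseudogenes, copies of messages without introns, gave 79 genes higher and 35 lower in CsA at an unadjusted p under 0.05 among 665 tested, beside 1015 and 924 among 11793 protein-coding genes; fragments shared with the parent genes could not be separated.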
